A study of Bostrychia moritziana with 3 samples.

Results

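These results describe 128 assembled transcripts of the red alga Bostrychia moritziana that were abundant in male gametophytes, stood well below that level in female gametophytes and tetrasporophytes, and were still detected in at least 1 of those 2 stages. A transcript was a member when it reached 100 RPKM in the male library, when this was at least 4 times the higher of the female and tetrasporophyte values, and when that higher value was above 0.3 RPKM. RPKM is the number of reads per kilobase of transcript and per 1000000 mapped reads. Transcripts at 10 RPKM or more in one of the other stages and at 0.3 RPKM or less in the remaining one were left out, which removed 1. The members were 128 of the 36534 transcripts listed for any stage (0.350%) and 128 of the 718 that reached 100 RPKM in the male (17.8%). Because the male excess chose the members, it is given below as a description and was not tested.

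The stages were sampled from unialgal cultures of 1 strain (2746), each as 1 RNA sequencing library. Males were forming spermatangial clusters, females were forming carpogonial branches, and tetrasporophytes carried mature sporangia. All were thalli of unstated number, kept in the same medium, temperature and light regime. With 1 library per stage, the spread between cultures is unknown and no difference below carries a p-value. In whole thalli, a lower value can stem from fewer cells of a kind or from less RNA per cell, and these cannot be told apart.

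Red algae have no flagellated cells. Their males release non-motile spermatia from spermatangia formed in dense clusters on the thallus, and water carries the spermatia to the hair-like trichogyne of the female carpogonium. After fertilization a carposporophyte grows on the female, and its spores give rise to the free-living diploid tetrasporophyte, in which meiosis takes place in tetrasporangia. Males and females are therefore haploid and the tetrasporophyte is diploid. Transcripts are identified by an assembly number, which the files do not pair with a gene name, a sequence or a function. The roles of the members are thus not known here, lists of pathway genes or of spermatangial markers could not be evaluated, and the labelled stages could not be checked against marker genes.

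The members made up a sizeable part of the male library and a small part of the others. Together they held 13.9% of the summed male RPKM, against 0.758% of the female and 0.991% of the tetrasporophyte sum. Their male values ran from 101.1 to 15688 RPKM with a median of 237 RPKM. In the female they ran from 0.04 to 822 RPKM (median 14.4), and in the tetrasporophyte from 0.20 to 369 RPKM (median 28.2). Every member was listed for all 3 libraries, and none was at 0 in any, so no ratio rests on a value filled in for a missing transcript. The median member was the 219th most abundant transcript of the male (rank 219), but ranked 6973 in the female and 3942 in the tetrasporophyte. Members were 7 of the 10 and 33 of the 100 most abundant transcripts of the male, 1 of the 100 most abundant of the female and 0 of the 100 most abundant of the tetrasporophyte.

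**Figure D1:**
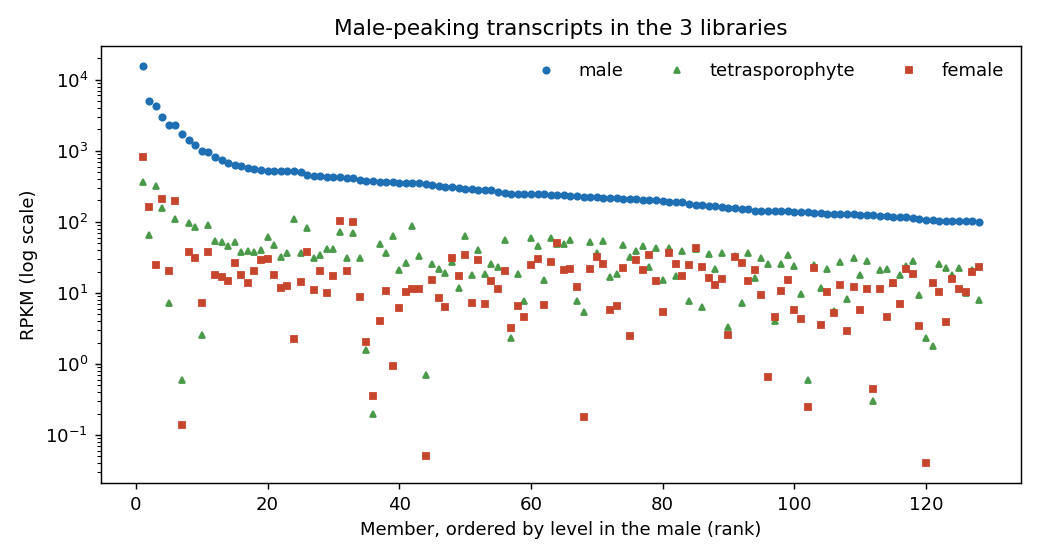
RPKM (log scale) of each of the 128 members in the male (circles), tetrasporophyte (triangles) and female (squares) libraries, with members ordered by their male level. The male values fall from 15688 to 101.1 RPKM, while most tetrasporophyte and female values lie between 1 and 100 RPKM, and 5 members in the female and 2 in the tetrasporophyte stand at 0.3 RPKM or less.

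A few very abundant transcripts dominated this sum. ISGT_41164, the most abundant transcript of the male library, had levels of 15688 (male), 822 (female) and 369 RPKM (tetrasporophyte). It was 19.1 times as high in the male as in the female and 42.6 times as high as in the tetrasporophyte. Even so, it remained an abundant transcript elsewhere, ranking 28 in the female and 130 in the tetrasporophyte. ISGT_41991 ranked next, with levels of 5036 (male), 163 (female) and 65.6 RPKM (tetrasporophyte), and was 30.8 and 76.7 times as high in the male. In both, the female value was above that of the tetrasporophyte, unlike in most members. ISGT_41164 alone accounted for 22.4% of the RPKM of the members, and the 10 most abundant members accounted for 54.2%. Over the whole group, 49 members stood between 100 and 200 RPKM in the male, 54 between 200 and 500 RPKM and 16 between 500 and 1000 RPKM, with 9 at 1000 RPKM or more.

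In the other stages, most members stood at an intermediate level, which the rule sets in part. It left out the 16 transcripts at 0.3 RPKM or less in both other stages, and it caps the higher value by the male value. The higher of the female and tetrasporophyte values lay between 10 and 100 RPKM in 103 members (80.5%), at 100 RPKM or more in 8, between 1 and 10 RPKM in 12, and below 1 RPKM in 5. Of the 18774 transcripts at 1 RPKM or more in either library, 9850 had a higher value between 10 and 100 RPKM. In the female, 119 members reached 1 RPKM and 88 reached 10 RPKM. In the tetrasporophyte these counts were 123 and 104. For comparison, 573 transcripts at 100 RPKM or more in the male were less than 4 times the higher of the others. Their female median was 151 RPKM and their tetrasporophyte median was 127 RPKM. The limit of 4 times caps the other values of members and sets a floor under the higher value of these transcripts. Much of the gap between their medians and those of the members is therefore built in, and nothing is read from it.

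The size of the male excess was unevenly spread. The median ratio of male to the higher of the other libraries was 9.82, without a pseudocount. It was between 4 and 8 in 61 members (47.7%), between 8 and 10 in 5 (3.91%), between 10 and 20 in 46 (35.9%) and at 20 or more in 16 (12.5%). Few members thus stood between the lower range and the middle range, from 10 to 20. The range from 8 to 10 is, however, the narrowest of these on a log scale. These limits were drawn after the values had been seen. Among all transcripts at 100 RPKM or more in the male, 20.2% were at least 4 times the higher of the others, a share that includes the members themselves and from which nothing is read. The ratio differed with the male level: its median was 5.78 for members between 100 and 200 RPKM, 10.4 between 200 and 500 RPKM, 14.3 between 500 and 1000 RPKM and 14.9 at 1000 RPKM or more. Of the 16 members between 500 and 1000 RPKM, 13 had a ratio between 10 and 20. The male level is the numerator of this ratio, so part of the rise is built in, and the trend was not tested.

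Transcripts below the level of the members, like the members nearest to that limit, showed the middle range less than the group as a whole. Between 30 and 100 RPKM in the male, 157 transcripts stood at least 4 times above the higher of the other libraries with that value above 0.3 RPKM. Their median ratio was 5.75. A ratio between 10 and 20 was found in 16 of them (10.2%), against 35.9% of the members. Between 10 and 30 RPKM it was found in 27 of 174 (15.5%). Members between 100 and 200 RPKM stood close to the 157, with 5 of 49 in this range of ratios and a median ratio of 5.78. The larger share came from higher members: 22 of 54 between 200 and 500 RPKM, 13 of 16 between 500 and 1000 RPKM and 6 of 9 at 1000 RPKM or more. Below 100 RPKM the limit of 0.3 RPKM caps how high a ratio can be counted, though for a male value of 30 RPKM that cap stands far above 20. Unlike for the members, no transcript at these lower levels was left out for being at 0.3 RPKM or less in one of the other stages. The difference in shares was not tested.

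**Figure D2:**
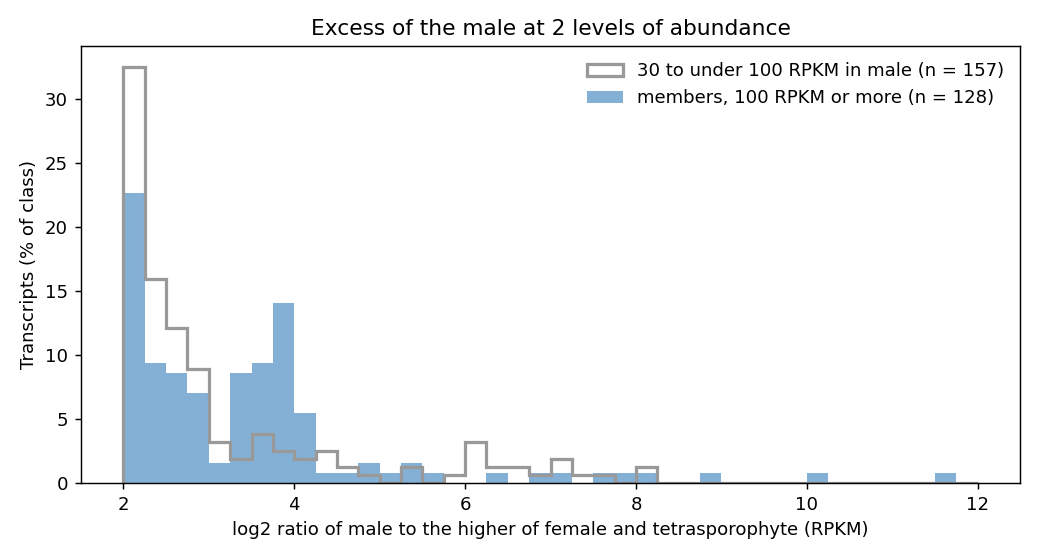
Distribution of the log2 ratio of male to the higher of female and tetrasporophyte (RPKM, no pseudocount), as the percentage of transcripts in each class, for the 128 members (filled) and for the 157 transcripts between 30 and 100 RPKM in the male that meet the same ratio (outline). The members show a second peak between ratios of 10 and 20, which holds 35.9% of them against 10.2% of the less abundant class. Of the 49 members between 100 and 200 RPKM in the male, 5 lie in this peak.

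The 2 largest ratios belonged to transcripts close to absent elsewhere. ISGT_12851 had levels of 1737 (male), 0.14 (female) and 0.59 RPKM (tetrasporophyte), and was 2944 times as high in the male as in the tetrasporophyte. ISGT_13196 followed at 376 (male), 0.35 (female) and 0.20 RPKM (tetrasporophyte), a ratio of 1076 to the female. Read totals are unknown, so the precision of these low values, and with it of such ratios, is unknown too. Of the 16 members at a ratio of 20 or more, 8 exceeded 100. These 16 had a female median of 2.29 RPKM and a tetrasporophyte median of 2.43 RPKM, against 15.5 and 31.8 RPKM in the 112 members below a ratio of 20.

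The ratio of female to tetrasporophyte was not used to choose the members, although the rule caps both values by the male value and left out 1 transcript with a wide ratio. Most members were higher in the tetrasporophyte than in the female, 100 of 128 (78.1%), against 59.6% of the 18774 transcripts at 1 RPKM or more in either library. The median log2 ratio of female to tetrasporophyte, after adding a pseudocount of 1 RPKM, was -1.06 over the members and -0.21 over those 18774. At least 2-fold higher in the tetrasporophyte were 69 members (53.9%), against 21.5% of the 18774 transcripts. At least 2-fold higher in the female were 9 members (7.03%), against 11.1%. The remaining 50 members were less than 2-fold apart.

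At 4-fold, the share of members higher in the tetrasporophyte was close to the background, while the share higher in the female was below it. That far above the female were 9 members (7.03%) in the tetrasporophyte, against 7.23% of all transcripts considered. At least 4-fold higher in the female was 1 member (0.781%), against 4.12%. With a pseudocount of 0.1 RPKM, 14 members (10.9%) were that much higher in the tetrasporophyte, against 13.6% of all, and 1 in the female, against 6.96%. Of the 69 members at least 2-fold higher in the tetrasporophyte, most were thus less than 4-fold apart. The 4-fold background starts at 1 RPKM, below the level of most members, and was not computed at their level.

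The lean at 2-fold was also seen at the level where most members lay. Of the 103 members whose higher value in the other stages was between 10 and 100 RPKM, 63 (61.2%) leaned at least 2-fold toward the tetrasporophyte, against 18.7% of the 9850 transcripts in that range. Of these members 6 (5.83%) leaned as far toward the female, against 9.65%. Among the 573 transcripts as abundant in the male but less than 4 times the others, 19.4% leaned at least 2-fold toward the tetrasporophyte and 20.4% toward the female, with a median log2 ratio of 0.11. Each of these shares compares the same 2 libraries, and none was tested.

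Scaling of the libraries moved these counts without turning their direction. Median-of-ratios scaling raised the log2 ratio of female to tetrasporophyte of all transcripts by 0.21. The group then had 115 members, of which 50 (43.5%) leaned at least 2-fold toward the tetrasporophyte and 9 (7.83%) toward the female, against 18.8% and 13.9% of the 18774. The median log2 ratio was -0.87 over the members and -0.03 over all.

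The ends of the female to tetrasporophyte ratio were unequal in size. ISGT_4697 had levels of 512 (male), 110 (tetrasporophyte) and 2.28 RPKM (female), so that its log2 ratio of female to tetrasporophyte was -5.08. ISGT_3841 came next at 363 (male), 63.9 (tetrasporophyte) and 0.93 RPKM (female), with a ratio of -5.07 on that scale. Both were low in the female, though above the detection limit of 0.3 RPKM. In the opposite direction, ISGT_15842 had levels of 105 (male), 13.8 (female) and 1.77 RPKM (tetrasporophyte), and a log2 ratio of 2.41. ISGT_42659 was at 154 (male), 26.5 (female) and 7.33 RPKM (tetrasporophyte), with a log2 ratio of 1.72. The largest ratio toward the female was thus smaller than the largest toward the tetrasporophyte.

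A part of the members had similar proportions between the 3 libraries. In 31 members (24.2%) the male stood 10 to 17 times above the tetrasporophyte and the tetrasporophyte 2 to 4 times above the female. These limits were drawn after the values had been seen. The medians of these 31 were 357 (male), 30.5 (tetrasporophyte) and 10.9 RPKM (female). Their median ratio of male to tetrasporophyte was 14.3, and 23 of them were at 12 or more, while their median ratio of tetrasporophyte to female was 2.75. The ratio of male to female ran from 22.6 to 50.2 among them. Their male levels spanned 109.57 to 1419 RPKM, a 12.9-fold range, over which the levels in the other libraries followed. Across these 31 transcripts the Spearman correlation of the male level was 0.97 with the tetrasporophyte and 0.95 with the female, which the limits on the ratios largely fix. Together they held 2.81% of the summed male RPKM.

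These proportions were seen in 0 of the 157 transcripts between 30 and 100 RPKM in the male described above. They were seen in 3 of 174 between 10 and 30 RPKM and in 4 of 325 between 1 and 10 RPKM. In the class from 1 to 10 RPKM, the limit of 0.3 RPKM bars part of the transcripts from a ratio of 10. Its count is therefore low in part by construction. Of the 31 members, 26 stood at 200 RPKM or more in the male. With limits widened to 8 to 20 and 1.5 to 5, the counts were 41 members and 6 of the 157. No sequence is at hand to show whether any of the 31 are copies or fragments of 1 transcript.

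A smaller concentration stood at the lower edge of the group. Of the 35 members with a ratio under 5, 16 were 2 to 2.5 times as high in the tetrasporophyte as in the female. These 16 had medians of 180 (male), 38.0 (tetrasporophyte) and 16.9 RPKM (female), with a median male to tetrasporophyte ratio of 4.29. Among transcripts at 100 RPKM or more in the male, such a tetrasporophyte to female ratio was found in 12 of the 20 between 4 and 4.5 times the higher other library, in 4 of 16 between 4.5 and 5 times, in 0 of 3 between 5 and 5.5 times and in 3 of 11 between 5.5 and 6 times. Below the limit it was found in 1 of 10 between 3.5 and 4 times and in 2 of 12 between 3 and 3.5 times. The counts per range are small. Unlike the first concentration, this one continued at lower levels: of the 56 transcripts between 30 and 100 RPKM in the male with a ratio of 4 to 5, 17 (30.4%) had the same tetrasporophyte to female ratio. These limits were also drawn after the values were seen.

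**Figure D3:**
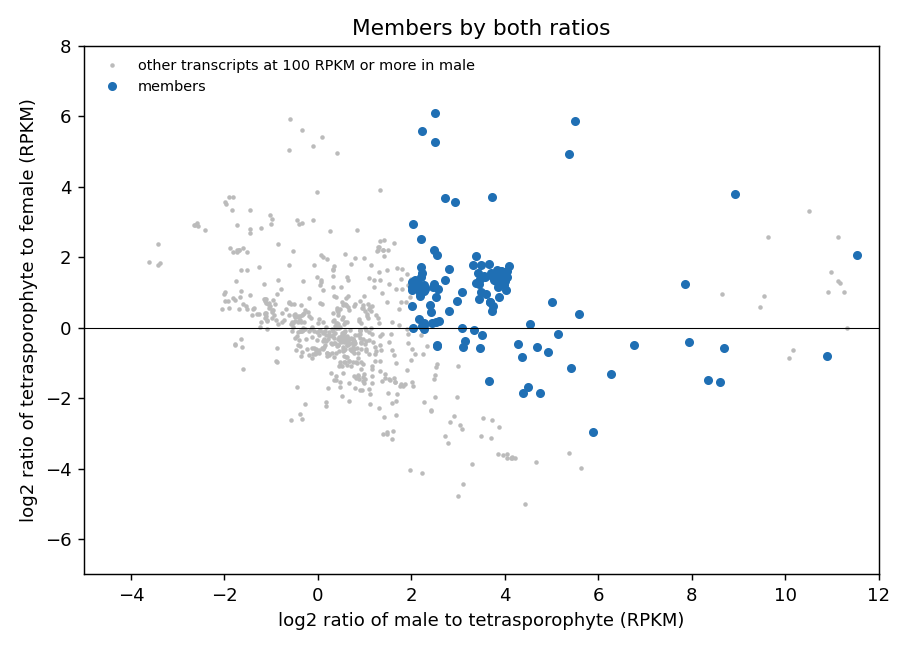
Log2 ratio of male to tetrasporophyte (horizontal) and of tetrasporophyte to female (vertical), both of RPKM without a pseudocount, for the 128 members (large points) and the other transcripts at 100 RPKM or more in the male (small grey points; 14 with a 0 or beyond the axes are not drawn). Members crowd at a male to tetrasporophyte ratio of 10 to 17 with a tetrasporophyte to female ratio of 2 to 4 (31 members), and near a ratio of 4 with a tetrasporophyte to female ratio of 2 to 2.5 (16 members).

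Across all 128 members, the levels in the female and the tetrasporophyte had a Spearman correlation of 0.63. That of male and tetrasporophyte was 0.50 and that of male and female 0.28. Over the 573 other transcripts at 100 RPKM or more in the male, outside the ratio limit, they were 0.46, 0.43 and 0.48, respectively. The members were selected on the ratio of these same values, and the points share their libraries, so these are descriptions.

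Position along the assembly numbers went with the size of the excess. Of the members, 41 had a number up to 5000, 59 a number above 39000 and 28 a number in between, while 75.7% of all transcripts had a number in between. Abundant transcripts in general also lay mostly outside the middle range. Of the 718 at 100 RPKM or more in the male, 318 were in the first range, 273 in the last and 127 in between. None, 0 of the 9981 transcripts numbered between 25000 and 39000, reached that level there. The share of these abundant transcripts that were members was not even, at 12.9% in the first range, 21.6% in the last and 22.0% in between. Within the group, 14 of the 16 members at a ratio of 20 or more had a number between 5000 and 39000, against 14 of the other 112 (12.5%) and 83 of the 573 other abundant transcripts (14.5%). The median ratio was 20.9 in the middle range, 10.4 above 39000 and 5.46 up to 5000. The lean toward the tetrasporophyte also differed, with 40 of 59 members above 39000 at least 2-fold higher there than in the female, 24 of 41 up to 5000 and 5 of 28 in between. The same shares over all transcripts of each range are not given here, so this difference cannot be called particular to the members. The 28 in between also had low medians, 5.475 RPKM (female) and 6.775 RPKM (tetrasporophyte), where the pseudocount shrinks the ratio more. What the order of the numbers stands for is not given in the sources used here, and its part in these results was not tested.

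**Figure D4:**
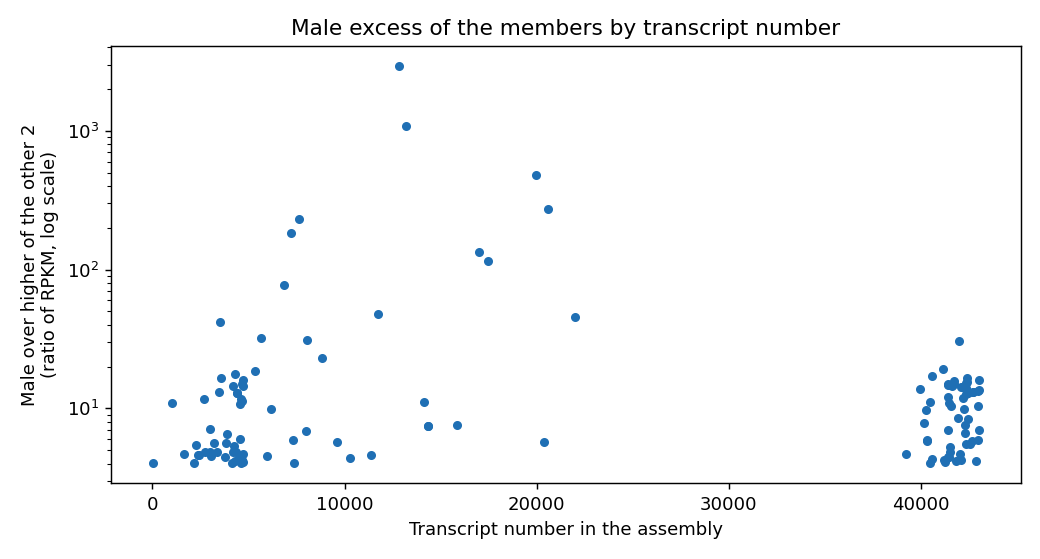
Ratio of male RPKM to the higher of female and tetrasporophyte RPKM (log scale) against the assembly number of each of the 128 members. Members numbered up to 5000 or above 39000 lie below a ratio of 50, and the 9 members at 50 or more all lie between 5000 and 39000.

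In 3 cases, members had consecutive numbers, and their values were not alike throughout. One pair had male values of 518 and 512 RPKM, but tetrasporophyte values of 36.0 and 110 RPKM and female values of 12.7 and 2.28 RPKM. Another differed in the male (565 and 169 RPKM) and much less in the tetrasporophyte (38.8 and 34.8 RPKM) and the female (13.8 and 16.2 RPKM). The third had male values of 201 and 103 RPKM, tetrasporophyte values of 23.4 and 17.7 RPKM and female values of 34.0 and 16.0 RPKM, and so nearly the same ratio to the higher of the others, 5.92 and 5.78.

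The values on either side of each limit were close to each other. The lowest member in the male stood at 101.1 RPKM (23.1 in the female, 8.03 in the tetrasporophyte), and the highest transcript kept out by the male limit at 97.6 RPKM (7.80 and 21.3). The smallest ratio among members was 4.01 (112 RPKM in the male, 18.2 in the female, 27.8 in the tetrasporophyte), and the largest outside was 3.99 (153, 38.4 and 33.3 RPKM). At the detection limit, the last member had a female value of 0.35 RPKM, and the first transcript outside stood at 174 (male), 0.29 (female) and 0.16 RPKM (tetrasporophyte). The transcript that was left out stood at 178 (male), 37.6 (tetrasporophyte) and 0.04 RPKM (female).

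Transcripts as abundant in the male but undetected elsewhere were fewer and lower. At 100 RPKM or more in the male and at most 0.3 RPKM in both other libraries stood 16 transcripts, with male values between 100.39 and 444 RPKM (median 144) and 0.605% of the summed male RPKM. All 16 had numbers between 5000 and 39000, as did 14 of the 16 members with a ratio of 20 or more.

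With the libraries exchanged in the rule, 49 transcripts peaked in the female and 73 in the tetrasporophyte. They were 6.81% of the 720 transcripts at 100 RPKM or more in the female and 10.8% of the 679 in the tetrasporophyte, against 17.8% in the male. They held 4.88% and 5.81% of the summed RPKM of their library, against 13.9%. Their median ratios to the higher of the other libraries were 6.26 and 6.96, against 9.82 for the male. A ratio between 10 and 20 was found in 8 of the 49 (16.3%) and 12 of the 73 (16.4%), against 35.9% of the male group. The most abundant of each stood at 3453 RPKM (female) and 1402 RPKM (tetrasporophyte), and 4 and 5 transcripts reached 1000 RPKM, against 9 in the male group. With 1 library per stage, none of these differences was tested. The exchanged groups were counted on unscaled RPKM only, while median-of-ratios scaling lowered the male group to 115 members. Of the summed male RPKM, ISGT_41164 alone held 3.12%.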

How the data were processed

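Per the labels' protocols, total RNA came from a TRI Reagent extraction and was sequenced as Illumina libraries. The authors deposited 1 RPKM value per transcript and library, per the file headers, and the values carry 2 decimals. How the transcripts were assembled, aligned and counted, their lengths and the number of reads are not given in the sources used, so depth is unknown and no counting interval was given. The 3 files were joined on the transcript number, and a transcript not listed was counted as 0.3 RPKM. RPKM were used without further scaling. Ratios involving the male have no pseudocount. The log2 ratio of female to tetrasporophyte used a pseudocount of 1 RPKM, which understates differences of low values, with counts taken at 2-fold and at 4-fold.

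The members, the ranges and the counts were chosen with earlier results of these data known. Transcript numbers were printed for the 2 members highest in the male, the 2 with the largest male ratio and the 2 at each end of the female to tetrasporophyte ratio. The counting was checked on simulated data. The software was Python 3.11.15 with matplotlib 3.10.9, numpy 2.4.6, scipy 1.17.1 and pandas 2.3.3. Alternatives changed the limits of the rule, the scaling, the pseudocount, the fold and the value of a transcript not listed.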

Additional observations from a re-analysis of the deposited data

How the results depend on the processing

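The number of members moved with the limits of the rule, as their construction makes it: it was 205 with 50 RPKM and 79 with 200 RPKM in the male, and 200 with a 2-fold and 67 with an 8-fold limit. It stayed between 115 and 144 under the other alternatives. The share of the summed male RPKM stayed between 11.5% and 17.2%, and the median log2 ratio of female to tetrasporophyte stayed negative, between -1.14 and -0.87, under every alternative run. The count of members at least 4-fold higher in the tetrasporophyte was 9 as reported, 14 with 50 RPKM in the male, 21 with a 2-fold and 2 with an 8-fold limit on the male ratio, 14 with a pseudocount of 0.1 RPKM and 69 when counted at 2-fold. The count at least 4-fold higher in the female was 1 as reported, 2 with 50 RPKM in the male, 0 with 200 RPKM, 5 with a 2-fold and 0 with an 8-fold limit, and 9 or 0 when counted at 2-fold or 8-fold. Counts added after the data were seen were 36 to 98 for members at least 2-fold higher in the tetrasporophyte, 4 to 19 for the female, 41 to 54 for a ratio between 10 and 20, and 26 to 31 for the shared proportions. No paired analysis was possible because each stage has 1 library. Read depth is unknown, which limits the values under 1 RPKM most.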
